A study of Mus musculus with 840 samples.

Results

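The cells described here are the basal GFP+ cells of SMACreERT2/N1ICD mice at 1, 3 and 4 weeks of chase, that is, 1, 3 or 4 weeks after tamoxifen. They were chosen by 3 deposited labels, the genotype, the sort gate and the chase time, and then by 5 filters on each cell: more than 100000 reads on genes, more than 1400 detected genes, less than 10% mitochondrial reads, a minimum of 2 reads of *Epcam* and a maximum of 10 of *Dcpp1*. *Epcam* encodes the epithelial adhesion molecule used in the sort, and *Dcpp1* a secreted salivary gland protein used here to remove cells that carry salivary transcripts. The kept cells were 95 with basal keratins and 6 without them, from 840 cells of all kinds deposited for the series, and the filters removed 34 others of the same label. They lay on 4 plates. The 1-week plate of sequencing batch 1 held 51 kept cells of 73 sorted, the 3-week plate of batch 1 held 6 of 12, the 3-week plate of batch 2 held 28 of 34, and the 4-week plate of batch 2 held 16 of 16. The kept cells had 109841 to 809262 reads on genes, with plate medians of 503019, 435358, 435376 and 401613 reads.

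In these mice, tamoxifen given at postnatal day 21 (P21) activates a Cre recombinase driven by the promoter of *Acta2*, the smooth muscle α-actin gene. Cre then switches on the intracellular part of Notch1 (N1ICD), which acts without ligand, together with a nuclear GFP, from the Rosa26 locus. GFP+ cells are therefore the recombined cells, and all 4 groups carry the same alleles and received tamoxifen. Lineage-negative live cells (CD45-, Ter119-, CD31-) were index-sorted, and the basal gate was EpCAM low and CD49f high. The gate itself sets part of what can be seen, because a recombined cell that had left the basal gate would not be among these cells. The plate names in the deposited annotation hold what read as mouse numbers, a single number for the 4-week plate and a pair for each other plate, and no label ties a cell to an animal. Basal GFP- cells of this genotype were kept only on a 3-week plate of batch 3 (6 cells), which was sequenced as paired-end rather than single-end reads, so that their values are set beside the others without comparison.

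Mammary basal cells, or myoepithelial cells, form the outer layer of the ducts. They carry keratins 5 and 14, contract in response to oxytocin through a smooth muscle type apparatus, and lay down basement membrane. Notch receptors release their intracellular part on binding a Delta or Jagged ligand. It then enters the nucleus, binds RBPJ and raises targets of the Hes and Hey families. Notch signalling is known to favour luminal over basal identity in this tissue.

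Each chase time within a batch was a single plate and therefore 1 sample, so no test between chase times was possible and none is given. Levels are CPM, the reads of a gene scaled to a common total of reads on genes, from reads summed over the cells of a plate. They come with exact Poisson intervals where stated, and with the lowest, median and highest cell. Such intervals cover counting error of reads only, and not the spread between cells or mice. Reads without molecular identifiers are not independent molecules, so the intervals are too narrow even for counting error. Where 4 levels are given in a row, they stand for 1 week, 3 weeks in batch 1, 3 weeks in batch 2 and 4 weeks. Genes tested are those that passed a filter on low values: the higher plate reached 10 CPM, and at least 30% of its cells had a read after thinning each cell to 100000 reads. A tested gene was called higher or lower when its level differed at least 2-fold and the ratio stayed at 2 or more when the cell with the most reads of that gene was left out of the higher plate. A plate with under 3 reads of a gene was set to 3 reads, over the whole plate, in the ratio.

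By this rule, 3 against 1 week in batch 1 gave 1505 calls among 6671 genes tested (22.6%), 510 higher (7.65%) and 995 lower (14.9%) at 3 weeks. In batch 2, 4 against 3 weeks gave 1287 calls among 6890 genes (18.7%), 552 higher (8.01%) and 735 lower (10.7%) at 4 weeks. The pair of 3-week plates, which share the chase time but neither batch nor the numbers in their names, differed in 1699 of 7020 genes (24.2%), 1224 higher (17.4%) and 475 lower (6.77%) in batch 2. Plates of the same chase thus differed in as large a share of genes as plates of different chases, and mice, plate and chase time cannot be told apart in either comparison. The 3-week plate of batch 1 has 6 cells, and leaving out a cell weighs more there: without the leave-out check, 3 against 1 week gave 1570 genes higher and 1203 lower, and the 3-week plates 1525 higher and 1411 lower in batch 2.

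The basal label held in nearly all cells (plot of the 4 basal markers). *Krt14*, a basal keratin, stood at 3717, 5794, 5015 and 4593 CPM, and its lowest, median and highest cells at 1 week were at 0, 3861 and 10659 CPM. *Krt5*, its pairing partner, stood at 869, 2070.1, 898 and 1203 CPM. *Sparc*, a secreted collagen-binding protein, stood at 2145, 1970.1, 2199.8 and 1875 CPM, had reads in every cell, and at 4 weeks its lowest, median and highest cells were at 351, 1834 and 3595 CPM. None of these 3 was called in either comparison. The sum of *Krt5* at 3 weeks in batch 1 was over 2-fold that at 1 week, but not with the cell of most *Krt5* reads left out. In the luminal-gate GFP+ cells of the same 4 plates (9, 18, 18 and 51 cells), *Krt14* was at 451, 18.9, 178.6 and 405 CPM and *Sparc* at 21.3, 4.51, 42.1 and 173.5 CPM. The *Krt14* sums there rested on few cells, with median cells at 4.24, 0.944, 1.48 and 1.90 CPM and highest cells at 1298, 171.5, 2313 and 6372 CPM. On the batch 1 plates the luminal-gate cells also carried a salivary transcript, *Bpifa2*, at a high level given below.

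**Figure D1:**
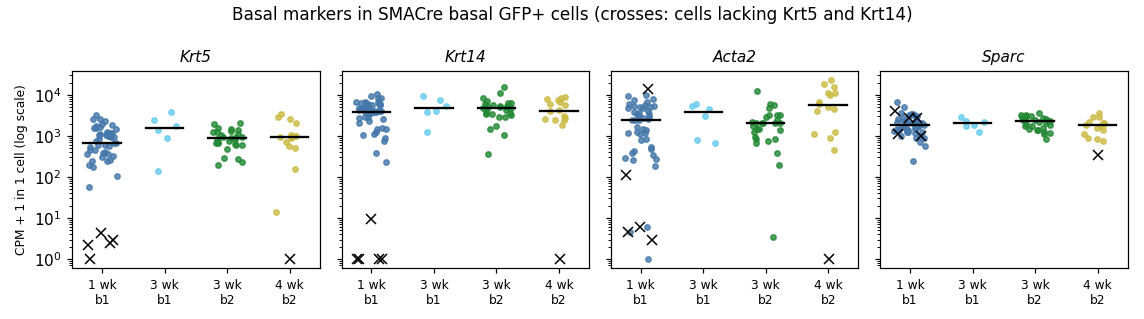
Level of the 4 basal markers in each kept cell (CPM + 1, log axis) by plate, with a bar at the plate median and crosses for the cells that lack *Krt5* and *Krt14*. The 4-week plate has the highest *Acta2* median, and *Sparc* is present in all cells, crosses included.

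The 6 cells without basal keratins went against the label. They had under 10 reads of *Krt5* and *Krt14* together (0 to 7 reads), where every other cell had over 100 reads. Of the 6, 5 were among the 51 cells of the 1-week plate, each with exactly 2 *Epcam* reads, the minimum of the filter, and 1 was among the 16 at 4 weeks, with 9 *Epcam* reads and no *Acta2* read. Of the 1-week cells, 3 carried endothelial markers, with *Pecam1*, which encodes CD31, at 1874 to 5663 CPM. The fourth had 13855 CPM of *Acta2* with *Rgs5* at 5238, *Notch3* at 5443 and *Pdgfrb* at 1027 CPM, markers of the mural cells of blood vessels, in which the *Acta2* promoter is also active. The fifth had *Notch3* at 1588 and *Des* at 1201 CPM, but *Rgs5*, *Pdgfrb* and *Cspg4* at 0 and *Acta2* at 1.99 CPM. Its fibroblast markers summed to 411.5 CPM, mostly *Col1a2* at 403.6 CPM.

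A further 8 cells with keratin had over 100 CPM of the 11 endothelial and mural markers summed (plot of basal keratins against vascular markers). They were 4 at 1 week (102.6 to 342 CPM), 2 at 3 weeks in batch 2 (155.6 and 1014 CPM) and 2 at 4 weeks (412 and 2195 CPM). Many of these sums rested on a single gene. The cells at 137.8, 342 and 412 CPM had *Notch3* alone, that at 155.6 CPM *Pecam1* alone, and that at 102.6 CPM mostly *Rgs5* (100.8 CPM). The cell at 342 CPM also had 2588 CPM of *Epcam*. The cells at 1014 and 2195 CPM had *Pdgfrb*, *Notch3* and *Cspg4* together. The 4-week cell at 2195 CPM also had the highest *Acta2* of its plate, 23564 CPM, with *Krt14* at 1832 CPM. No caller for doublets was run. Counts of calls changed little when the 6 cells were left out (1575 and 1274 calls, 23.3% and 18.7% of the genes tested) or all 14 (1519 and 1397 calls, 22.8% and 19.8%, on 42, 6, 26 and 13 cells). The genes called changed more than these totals. Of the 1505 calls of 3 against 1 week, 1365 were kept without the 6 cells and 1312 without the 14. Of the 1287 calls of 4 against 3 weeks, 1183 and 1002 were kept. The endothelial markers summed to 510.8, 0, 5.87 and 0.152 CPM and the mural markers to 391.5, 30.7, 48.9 and 217.7 CPM, with *Pecam1*, *Cdh5*, *Kdr* and *Emcn* all at 0 at 3 weeks in batch 1. Fibroblast markers summed to 17.8, 76.7, 15.3 and 76.1 CPM. Immune markers summed to at most 18.4 CPM, reached at 4 weeks, with *Ptprc*, which encodes CD45, at 0 on all 4 plates.

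**Figure D2:**
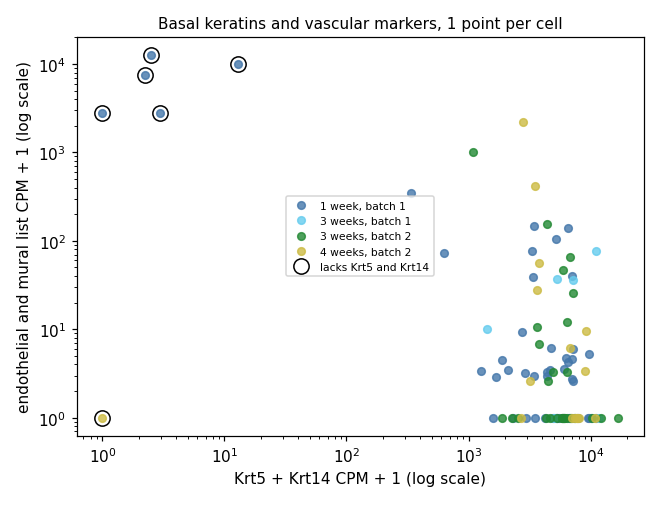
Sum of *Krt5* and *Krt14* (x axis) against the sum of the endothelial and mural markers (y axis), both in CPM + 1 on log axes, with each cell as a point coloured by plate and rings around the 6 cells that lack both keratins. Of the ringed cells, 5 are from the 1-week plate, and the lowest of these has 2789 CPM of vascular markers.

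Of the 4 basal markers, *Acta2* alone was called, and in batch 2 alone (ENSMUSG00000035783, GRCm38 chr19:34241090-34255590, minus strand), the gene whose promoter drives the Cre. It stood at 3027, 3129, 2625 and 7999 CPM. At 3 weeks in batch 2 the level was 2625 CPM (95% Poisson interval 2597 to 2653), with its lowest, median and highest cells at 2.55, 2060.2 and 12776 CPM. At 4 weeks it was 7999 CPM (95% Poisson interval 7931 to 8068), with cells at 0, 5624 and 23564 CPM. It was called higher at 4 weeks, 3.05-fold, and the cells of both plates overlapped over most of their range. Without the 14 cells that lacked keratins or had vascular markers, the levels were 3099, 3129, 2231 and 7195 CPM and the ratio 3.22. Between 1 and 3 weeks in batch 1 it differed by 1.03-fold, and the GFP- basal cells of batch 3 were at 5783 CPM.

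The promoters of *Acta2* and of *Myl9*, a myosin light chain, are shown because SRF, the factor of smooth muscle genes, binds a site called the CArG box. Both are the 250 bases before the RefSeq start, 5′ to 3′, on GRCm38.p6, *Acta2* at chr19:34255374-34255623 on the minus strand and *Myl9* at chr2:156775214-156775463 on the plus strand. Capitals mark only the strict form of the CArG box, CC, 6 bases of A or T, GG.
*Acta2*: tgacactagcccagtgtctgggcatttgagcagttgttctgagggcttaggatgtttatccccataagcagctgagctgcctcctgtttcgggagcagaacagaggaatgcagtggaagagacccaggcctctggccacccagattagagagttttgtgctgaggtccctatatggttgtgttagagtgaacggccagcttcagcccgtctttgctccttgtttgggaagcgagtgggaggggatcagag
*Myl9*: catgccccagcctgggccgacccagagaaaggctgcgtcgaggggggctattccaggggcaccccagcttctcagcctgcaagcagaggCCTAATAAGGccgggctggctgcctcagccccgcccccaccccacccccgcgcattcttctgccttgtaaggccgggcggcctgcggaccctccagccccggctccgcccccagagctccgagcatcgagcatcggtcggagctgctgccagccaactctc
The strict form of the CArG box, which reads alike on both strands, was found in *Myl9* and not in these letters of *Acta2*. Looser forms were not searched for, so unmarked letters can still hold a site for SRF. In *Acta2*, ccctatatgg and ccttgtttgg each differ from the strict form at a single base. The strict form was present in 482 of 32851 RefSeq promoter windows of this length (1.47%) and in those of 2 of the 17 contractile genes with an entry, *Myl9* and *Srf*. A match is a description of the letters only.

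The contractile genes, *Acta2* among them, were called in both directions. Of 21 listed, 18 passed the filter on low values for 4 against 3 weeks, and 2 were called higher (*Acta2* and *Actg2*) and 2 lower (*Oxtr* and *Flnc*), with a median log2 ratio of 0.47 against 0.01 over all genes tested. Over all genes 18.7% were called. Without the 14 cells, *Tagln* and *Srf* were called higher as well, 4 of 18 in all. *Actg2* (GRCm38 chr6:83512905-83536265), the γ-actin of smooth muscle, was higher at 4 weeks: it stood at 96.5, 10.8, 40.5 and 501 CPM, and its log2 ratio was 3.63. Its cells at 4 weeks were at 0, 1.35 and 3302 CPM (lowest, median, highest), against 0, 0 and 652 CPM at 3 weeks in batch 2. Without the 14 cells the levels were 119.3, 10.8, 41.3 and 519 CPM, and the call held.

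*Oxtr*, the oxytocin receptor through which these cells contract, went the other way. It stood at 610.0, 801, 662 and 207.5 CPM and was called lower at 4 weeks, with a log2 ratio of -1.67 and cells at 0, 131.9 and 834 CPM against 0, 336 and 5181 CPM. *Flnc*, a muscle filamin that crosslinks actin, stood at 202.7, 387, 793 and 78.3 CPM and was lower at 4 weeks by the same rule, with a log2 ratio of -3.34. The median cell of the 3-week plate in batch 2 was at 388 CPM of *Flnc* and that of the 4-week plate at 2.13 CPM.

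Several genes of the same apparatus had higher sums at 4 weeks and were not called, and some of these sums rested in part on single cells. *Cnn1*, calponin, stood at 332, 544, 554 and 1169.6 CPM (log2 1.08), but its median cells in batch 2 were close, 490.3 CPM at 3 weeks and 519 CPM at 4 weeks. *Myl9* stood at 473, 571, 602 and 1242 CPM (log2 1.04), and 38.4% of its reads at 4 weeks lay in a single cell, that with 2195 CPM of vascular markers. *Tagln*, transgelin, stood at 70.97, 34.8, 61.9 and 159.1 CPM and was called higher at 4 weeks when the 6 or the 14 cells were left out. Without the 14 it was also called lower at 3 than at 1 week. *Myh11*, the smooth muscle myosin heavy chain, stood at 575, 396, 528 and 721.3 CPM, and *Tpm2*, a tropomyosin, at 666, 526, 815 and 1540.5 CPM. Both stayed under 2-fold between 3 and 4 weeks, and *Tpm2* was over 100 CPM in 15 of the 16 cells at 4 weeks. Between 1 and 3 weeks in batch 1, 17 members were tested and *Lmod1*, an actin nucleator of smooth muscle, was called lower (81.1, 33.2, 85.3 and 49.1 CPM). That call was lost without a *Dcpp1* filter and turned its direction with at most 1 *Dcpp1* read.

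**Figure D3:**
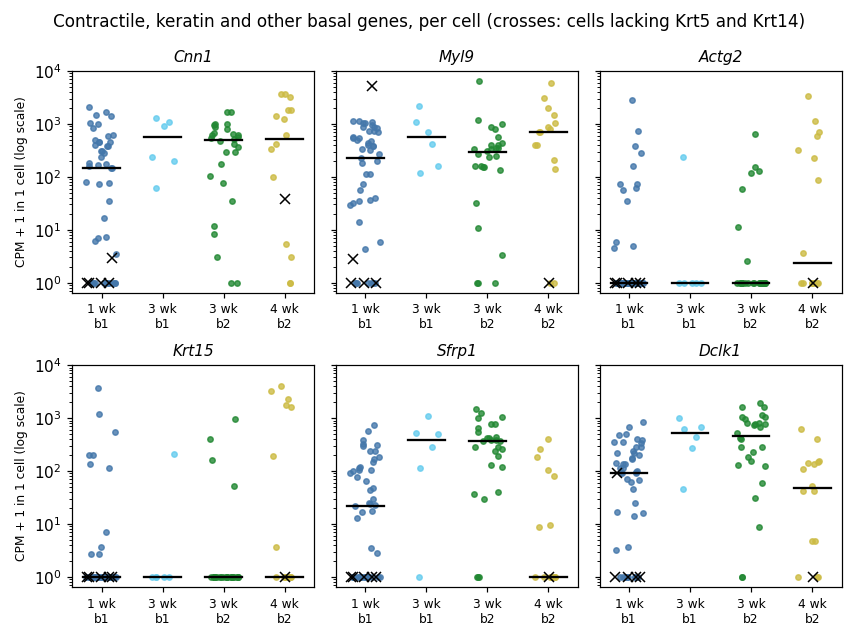
Level of 6 genes in each kept cell (CPM + 1, log axis) by plate, with bars at the plate medians and crosses for the cells that lack *Krt5* and *Krt14*. *Krt15* and *Actg2* are high in a subset of the 4-week cells, while *Sfrp1* and *Dclk1* are lower at 4 weeks than on both 3-week plates.

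Among the basal keratins, *Krt15* (GRCm38 chr11:100131758-100135928), a keratin of basal cells, was the one called higher at 4 weeks, 1 of 4 tested. It stood at 109.1, 22.8, 44.01 and 957 CPM, with a log2 ratio of 4.44, or 4.36 without the 14 cells. The rise lay in a subset: 6 of 16 cells at 4 weeks had over 100 CPM, up to 4055 CPM, against 3 of 28 at 3 weeks in batch 2, while the median cell was at 0 on all 4 plates. *Actg2* was over 100 CPM in 6 of the 16 cells too, and 5 cells were over 100 CPM of both. No cell of the other 3 plates was over 100 CPM of both. Among the 5 cells were all 3 cells of the 4-week plate over 100 CPM of fibroblast markers summed (209.6, 295.02 and 455.8 CPM). The last of these also had 197.7 CPM of immune markers. A further cell of the 5 was that with 2195 CPM of vascular markers. Only that cell of the 5 was among the 14, so leaving out the 14 kept the 3 with fibroblast markers. The part of such transcripts in the rise of *Krt15* and *Actg2* was not tested. *Krt15* was at 614 and *Actg2* at 475 CPM in the GFP- basal cells.

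*Krt16*, a keratin of stressed epidermis, was the keratin called higher at 3 than at 1 week, again 1 of 4 tested. It stood at 5.29, 286.5, 99.2 and 66.8 CPM, but it had over 100 CPM in only 2 of the 6 cells, and the call was lost under 3 of the 10 other settings. *Krt17*, a keratin of basal and ductal cells, stood at 2797, 3794, 2891 and 4459 CPM and was called in neither comparison. Of the basal transcription factors, *Trp63*, which sets basal identity in stratified and glandular epithelia, stood at 135.2, 109.9, 123.8 and 166.7 CPM and was not called. *Snai2*, a repressor active in basal cells, was higher at 3 than at 1 week (45.5, 188.6, 112.9 and 65.3 CPM), a call lost with either other *Dcpp1* limit and without the *Epcam* filter. *Id4*, an inhibitor of basic helix-loop-helix factors, stood at 71.01, 40.6, 51.6 and 125.95 CPM and was called higher at 4 weeks, as was *Irx4* (22.2, 26.1, 20.8 and 72.1 CPM), whose call was lost when cells were weighted equally.

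A second group had its highest sums on both 3-week plates. *Sfrp1* (GRCm38 chr8:23411502-23449632), a secreted Wnt inhibitor, stood at 93.7, 434, 439.7 and 58.4 CPM. It was called higher at 3 than at 1 week (log2 2.21) and lower at 4 than at 3 weeks (log2 -2.91). Its lowest, median and highest cells were at 0, 21.2 and 756 CPM at 1 week, 0, 389.9 and 1097 and 0, 369 and 1513 CPM on the 3-week plates of batches 1 and 2, and 0, 0 and 396 CPM at 4 weeks. The GFP- basal cells were at 57.6 CPM.

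*Dclk1* (GRCm38 chr3:55242364-55539068), a microtubule-associated kinase, had the same course, 151.3, 573, 618 and 130.4 CPM, and was called both ways. Its log2 ratios were 1.92 and -2.24, and its cells at 4 weeks lay at 0, 46.4 and 617 CPM against 0, 465 and 1927 CPM at 3 weeks in batch 2. Cells over 100 CPM of both *Sfrp1* and *Dclk1* were 8 of 51 at 1 week, 5 of 6 and 20 of 28 at 3 weeks, and 1 of 16 at 4 weeks. *Col6a2*, a collagen VI chain, also rose and fell, at 24.3, 182.4, 174.2 and 47.004 CPM, while its partner *Col6a1* (85.8, 303, 280.5 and 217.1 CPM) was called in batch 1 alone. The batch 1 calls of all 3 genes and of *Col6a1* were lost with at most 1 *Dcpp1* read, which left 2 cells at 3 weeks, and *Col6a2* then turned its direction. Over all genes, 36 were called higher at 3 than at 1 week and lower at 4 than at 3 weeks. They were 7.06% of those higher in the first comparison and 4.90% of those lower in the second. Of all genes tested, 10.7% were called lower in the second comparison and 7.65% higher in the first. The opposite course was taken by 54 genes, 5.43% of those lower in the first and 9.78% of those higher in the second. Beside these stand 8.01% of all genes higher in the second and 14.9% lower in the first.

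Of the Notch pathway, *Notch1* itself (GRCm38 chr2:26457903-26516663) stood at 478, 168.3, 369 and 352 CPM. The N1ICD transgene carries coding sequence of *Notch1*, and its reads cannot be told apart here from those of the gene. It was called lower at 3 than at 1 week in batch 1 (log2 -1.51), a call lost without the *Epcam* filter, and it was also called higher in batch 2 than in batch 1 at the same chase (log2 1.13). In batch 2 it differed little between 3 and 4 weeks (log2 -0.07). The 6 GFP- basal cells were at 63.02 CPM.

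*Hes1*, a direct target of the pathway, stood at 167.4, 187.4, 206.96 and 133.6 CPM, with its lowest, median and highest cells at 0, 40.3 and 2039.8 CPM at 1 week and 0, 46.3 and 1109 CPM at 4 weeks. It was called in neither comparison, although without the 14 cells it was called lower at 4 weeks (log2 -1.39), and the GFP- cells were at 10.3 CPM. *Rbpj*, the DNA-binding partner, stood at 31.4, 48.9, 27.4 and 26.01 CPM, and *Hey1*, another target, at 59.02, 14.9, 74.5 and 67.1 CPM. Of 15 listed targets, 4 and 5 passed the filter in the 2 comparisons and none was called, with 22.6% and 18.7% of all genes called.

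Among ligands and receptors, *Dll1*, a Delta ligand made by basal cells, was lower at 4 weeks, at 117.3, 90.8, 194.7 and 29.1 CPM and a log2 ratio of -2.74. *Notch2* was lower too (77.4, 50.6, 62.2 and 22.7 CPM, log2 -1.46). *Jag1* and *Jag2*, ligands of the Jagged family, stood at 336, 220.98, 537 and 339 and at 76.6, 99.5, 52.5 and 90.5 CPM and were not called between chase times. *Notch3*, also a mural cell marker, stood at 181.2, 26.5, 19.2 and 113.8 CPM, and at 5.49, 26.5, 3.403 and 0.768 CPM without the 14 cells. *Notch3* is itself among the markers by which part of the 14 cells were chosen. The cells at 137.8, 342 and 412 CPM of vascular markers were chosen on *Notch3* alone. Its lower levels without the 14 cells thus follow in part from that choice, and the source of its reads was not tested.

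Luminal keratins and claudin stood lower in these cells than in the luminal gate, whose GFP+ cells of batch 1 also carried salivary transcripts. *Krt8*, a luminal keratin, stood at 278.8, 268.2, 389 and 249.2 CPM against 1263, 2074, 3418 and 2312 CPM in the luminal-gate GFP+ cells of the same plates, and was not called between chase times. *Krt18*, its partner, stood at 379.6, 118.99, 284.96 and 130.2 CPM against 2169, 3319, 6202 and 4632 CPM in the luminal gate and was called lower at 3 than at 1 week, a call lost without a *Dcpp1* filter. *Krt19*, a keratin of luminal cells, stood at 95.3, 34.4, 49.2 and 187.9 CPM and was called higher at 4 weeks (log2 1.93), a call also lost without a *Dcpp1* filter. *Cldn3*, a claudin of luminal tight junctions, stood at 22.9, 0.829, 19.2 and 19.6 CPM against 539, 1078, 1378 and 1356 CPM in the luminal gate. *Elf5*, a factor of milk-producing progenitors, had no read at 3 weeks in batch 1 nor at 4 weeks.

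Most cells nonetheless had reads of both keratin pairs. With a threshold of 50 CPM, chosen after the values were seen, for *Krt5* with *Krt14* and for *Krt8* with *Krt18*, both pairs were present in 40 of 51 cells at 1 week (78.4%, 95% Clopper-Pearson interval 64.7 to 88.7). They were present in 6 of 6 (100%, 54.1 to 100) and 27 of 28 (96.4%, 81.7 to 99.9) at 3 weeks, and in 13 of 16 (81.3%, 54.4 to 96.0) at 4 weeks. These intervals treat the cells of a plate as independent and cover no difference between mice or plates. The cells without basal keratins, 5 at 1 week and 1 at 4 weeks, are counted here and cannot have both pairs. Leaving them out, 46 and 15 cells remain on these plates. In the luminal gate both pairs were present in 4 of 9, 3 of 18, 5 of 18 and 12 of 51 GFP+ cells. The summed levels of the luminal pair lay higher in the luminal gate on every plate (plot of both gates).

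**Figure D4:**
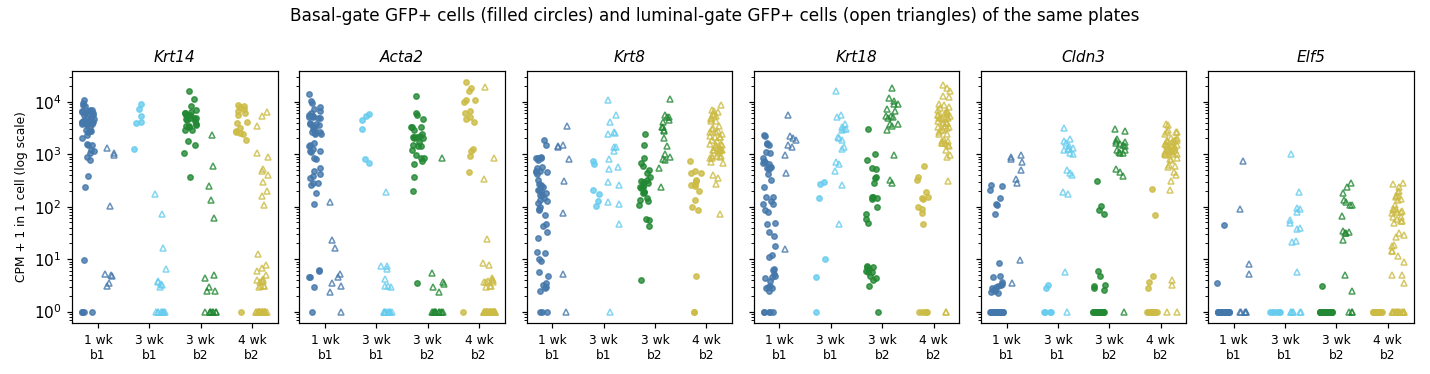
Level of 6 genes in basal-gate GFP+ cells (filled circles) and luminal-gate GFP+ cells of the same plates (open triangles), in CPM + 1 on a log axis. *Krt14* and *Acta2* are higher in the basal gate on every plate, *Krt8*, *Krt18* and *Cldn3* in the luminal gate, and the median *Krt8* cell is above 0 in both gates on every plate.

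Of the luminal progenitor list, *Plet1*, a surface protein of luminal progenitors, stood at 111.7, 5.39, 432 and 115.2 CPM and was called lower in both comparisons, under every setting tried, although the pair of 3-week plates differed by a log2 of 6.32. *Lcn2*, a secreted iron-trapping protein, stood at 1087, 612, 1010.2 and 1410.4 CPM, and *Mfge8*, a milk fat globule protein, at 432, 337, 392 and 760.4 CPM, neither called. *Csn3*, κ-casein, stood at 15.1, 62.2, 64.2 and 0.152 CPM and had 1 read at 4 weeks over 16 cells. Among luminal transcription factors, *Sox9* (330.0, 74.2, 514 and 295.3 CPM) and *Grhl2* (82.2, 9.95, 93.5 and 67.996 CPM) were lower at 3 than at 1 week in batch 1 and higher at 3 weeks in batch 2 than in batch 1. *Gata3*, a luminal factor, stood at 161.1, 231.8, 95.5 and 147.1 CPM, and the hormone receptor gene *Esr1* at 80.1, 61.8, 46.4 and 37.9 CPM, without a call. *Foxa1* and *Cited1*, genes of hormone-sensing cells, were at 0 at 3 and 4 weeks.

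Basement membrane and matrix genes moved in both directions. Of 27 listed, all were tested for 3 against 1 week, and 2 were called higher and 5 lower (22.6% of all genes called). For 4 against 3 weeks, 26 were tested, with 2 higher and 5 lower (18.7% of all genes called). The medians of the log2 ratios were -0.12 and -0.21, against 0.16 and 0.01 over all genes. *Lama1*, a laminin chain, stood at 24.7, 11.2, 22.2 and 100.1 CPM and was higher at 4 weeks, a call lost after thinning. *Eln*, elastin, stood at 162.5, 58.9, 180.7 and 25.1 CPM and was called lower in both comparisons, the first of which was lost without the 6 cells. *Timp3*, a protease inhibitor (317, 556, 585 and 202.9 CPM), and *Hmcn1*, a large matrix protein (108.9, 126.04, 203.05 and 54.9 CPM), were both lower at 4 weeks.

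*Ccn2*, a matricellular growth factor, stood at 806, 1985, 1262 and 253.4 CPM and was lower at 4 weeks, with the highest cell at 8389.7 CPM at 3 weeks in batch 2 and at 1265 CPM at 4 weeks. *Col4a1* and *Col4a2*, the main collagen IV chains, stood at 208.01, 74.2, 231.5 and 306 and at 230.6, 69.7, 230.1 and 330.2 CPM and were called lower at 3 than at 1 week. Both calls turned their direction without the *Epcam* filter, and both genes were higher at 3 weeks in batch 2 than in batch 1. *Nid1*, nidogen, had no read at 3 weeks in batch 1 and stood at 95.3, 21.7 and 64.8 CPM on the other plates, at least 76.6-fold lower at 3 than at 1 week. That call was lost without the 14 cells.

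Of the adhesion genes used by or close to the gate, *Itga6*, which encodes CD49f, stood at 430.0, 131.01, 401 and 407 CPM and was called lower at 3 than at 1 week, together with *Cd24a*, *Itga2* and *Itga9*, 4 of 11 tested, with 14.9% of all genes called lower. *Itga6* and *Cd24a* were also called higher in batch 2 than in batch 1 at the same chase of 3 weeks. *Epcam* stood at 443, 560.1, 648 and 393 CPM and was not called. *Itga9*, an integrin chain for tenascin and other matrix ligands, was lower in both comparisons (91.9, 31.9, 76.9 and 24.5 CPM). At 4 weeks that call was lost without the 14 cells.

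Genes of the Wnt pathway were called in both directions at 4 weeks. *Lgr6*, a receptor for R-spondins, stood at 137.5, 63.02, 43.7 and 232.9 CPM and was higher at 4 weeks (log2 2.41), with over 100 CPM in 8 of 16 cells against 4 of 28. *Lgr5*, its relative, stood at 357, 679.9, 374 and 256.3 CPM and was not called. *Wnt5a*, a ligand of the non-canonical branch, stood at 87.4, 84.99, 99.5 and 33.3 CPM and was lower at 4 weeks. Of 12 Wnt genes tested for 4 against 3 weeks, 2 were higher and 2 lower, with 8.01% and 10.7% of all genes called in these directions.

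*Egfr*, the EGF receptor, stood at 233.4, 138.9, 230.8 and 64.04 CPM and was called lower at 4 weeks (log2 -1.85), with its median cell at 31.7 CPM against 170.9 CPM. Its ligands *Tgfa* (42.7, 120.2, 61.2 and 15.97 CPM) and *Hbegf* (17.6, 0.415, 101.5 and 28.1 CPM) were called lower as well, so that 3 of 6 tested EGF family genes were lower, with 10.7% of all genes called lower. The call of *Hbegf* was lost without the 14 cells. *Erbb2*, a receptor of the family, stood at 53.8, 72.97, 26.7 and 76.2 CPM and was called higher at 4 weeks when the 6 or the 14 cells were left out. *Nrg1*, another ligand of the family, stood at 292.9, 501.7, 1332 and 841 CPM and was not called between chase times, but was higher in batch 2 than in batch 1 at 3 weeks.

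*Igfbp2*, an IGF-binding protein, stood at 40.9, 70.5, 10.6 and 240.04 CPM and was higher at 4 weeks, in 5 of 16 cells over 100 CPM against none of 28, a call lost without a *Dcpp1* filter. *Igfbp5*, another member, stood at 903, 816, 864 and 1266 CPM. *Bmp7*, a BMP ligand of basal cells, stood at 144.6, 245.9, 63.98 and 333 CPM and was higher at 4 weeks (log2 2.38), with 11 of 16 cells over 100 CPM against 6 of 28. It was also lower at 3 weeks in batch 2 than in batch 1. *Tgfb1*, the ligand, was higher at 4 weeks at 35.4, 32.8, 9.24 and 60.7 CPM, *Smad7*, an inhibitor of its signal, lower at 54.2, 97.01, 114.2 and 27.99 CPM, and *Ltbp1*, which binds latent TGFβ, lower in both comparisons at 112.1, 13.3, 95.5 and 21.6 CPM. *Tgfbr2*, the ligand-binding receptor, was lower at 3 than at 1 week (148.9, 12.9, 47.3 and 95.4 CPM).

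Few cell cycle genes passed the filter on low values. *Mki67* and *Top2a*, markers of dividing cells, stood at 11.3, 0, 57.9 and 0.152 and at 8.16, 0, 55.4 and 0 CPM, and neither had a read at 3 weeks in batch 1. Of 20 cell cycle genes, 6 were tested for 4 against 3 weeks, and *Mcm2* (1.23, 0, 20.8 and 101.6 CPM) and *Mcm7* (15.3, 27.8, 17.1 and 60.4 CPM), parts of the replication helicase, were called higher at 4 weeks, with 8.01% of all genes called higher. The call of *Mcm7* was lost without a *Dcpp1* filter. *Ccnd1*, cyclin D1, stood at 21.8, 56.4, 107.1 and 121.998 CPM against 269.6, 583, 893 and 615 CPM in the luminal gate. *Ccnd2*, cyclin D2, was called higher at 4 weeks at 44.4, 73.4, 15.1 and 252.7 CPM, and the 3-week plate of batch 1 lay above that of batch 2. *Cdkn1b*, the inhibitor p27, was lower at 3 than at 1 week (49.4, 4.98, 11.6 and 26.8 CPM).

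Immediate early genes, which dissociation and sorting are known to raise, also differed between plates. *Fos* stood at 4703, 14440.2, 2667 and 7907 CPM, called higher at 3 weeks in batch 1 and at 4 weeks in batch 2, with a log2 ratio of -2.44 for batch 2 against batch 1 at 3 weeks. The first call turned its direction with at most 1 *Dcpp1* read and the second was lost without the 6 cells. Of 14 tested genes, *Fosb* and *Dusp1* were also higher at 3 than at 1 week, and *Junb* and *Atf3* higher at 4 than at 3 weeks, and none was lower, with 7.65% and 8.01% of all genes called higher. Their part in other results was not tested. Of 11 heat shock genes, none was called between 1 and 3 weeks, and *Hspe1*, a mitochondrial chaperonin (41.3, 33.2, 25.3 and 64.95 CPM), was higher at 4 weeks. *Hmox1*, a heme-degrading enzyme, stood at 1681, 584, 1798 and 1837 CPM.

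Of 15 lipid synthesis genes, 10 were tested in each comparison. *Srebf1*, the factor of fatty acid synthesis, stood at 100.2, 12.02, 28.03 and 85.9 CPM, lower at 3 than at 1 week and higher at 4 than at 3 weeks, the latter lost without the 14 cells. *Acaca*, acetyl-CoA carboxylase, stood at 24.2, 37.7, 7.83 and 29.2 CPM and was higher at 4 weeks. *Fasn*, fatty acid synthase, was higher at 3 than at 1 week (130.3, 342, 76.6 and 111.3 CPM), a call lost without the 6 cells.

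**Figure D5:**
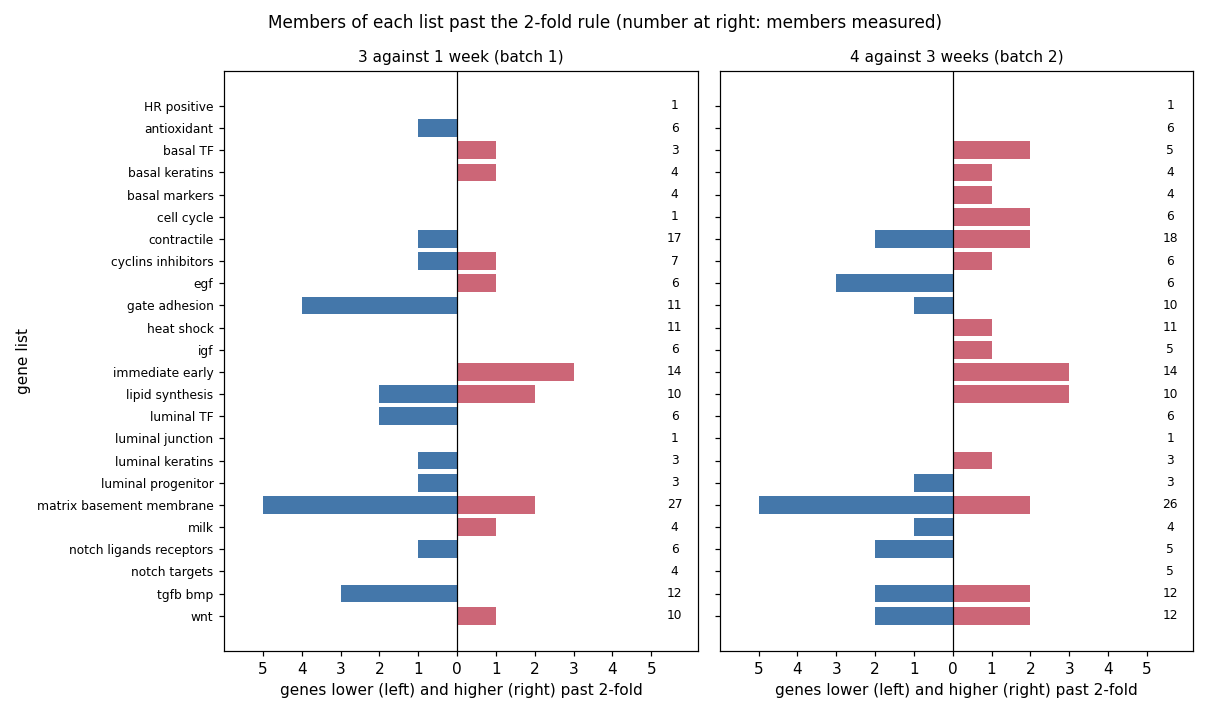
Number of genes of each list called lower (bars to the left) and higher (bars to the right) by the 2-fold rule, for 3 against 1 week (batch 1) and 4 against 3 weeks (batch 2), with the number of members tested at the right. No list has more than 5 calls in a direction, and contractile and matrix genes have calls both ways.

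The largest ratios belonged to genes of other kinds. For 4 against 3 weeks, *Wif1*, a secreted Wnt inhibitor, led those higher. It had no read in the 28 cells at 3 weeks, 78.9 CPM (95% Poisson interval 72.3 to 86.04) at 4 weeks and 5 of 16 cells over 100 CPM, at least 336-fold higher. It stood at 46.5 CPM at 1 week and 192.9 CPM in the GFP- basal cells. *Kcnip3*, a calcium-binding channel partner, followed at 50.6, 76.7, 0 and 55.5 CPM, then *Rmdn2*, *Zc3hc1*, *Phyhip*, *B4galnt1*, *Cdk10*, *Tspan18*, *Olfml3* and *Tap2*, at 21.6 to 88.4 CPM at 4 weeks and 1.41 CPM or less at 3 weeks in batch 2. *Tspan18*, a tetraspanin, stood at 10.03, 0, 1.41 and 88.4 CPM.

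*Thsd7a*, a thrombospondin-domain protein, led those lower. It stood at 152.9 CPM at 3 weeks in batch 2, with 18 of 28 thinned cells above 0, and had no read at 4 weeks, at least 335-fold lower. At 1 week it stood at 23.02 CPM and at 3 weeks in batch 1 at 15.8 CPM. *Zbtb16*, a zinc finger factor also called PLZF, had no read at 4 weeks and stood at 55.9 CPM at 3 weeks in batch 2. *Col6a6*, a further collagen VI chain, stood at 42.5, 0, 83.3 and 0.304 CPM. *Tmcc3*, *Csn3*, *Adamtsl1*, *Fxyd6*, *Igdcc4*, *Pik3c3* and *Bpifa2* completed the 10, all at 0.456 CPM or less at 4 weeks.

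For 3 against 1 week, the 10 genes with the largest ratios upward rested on few cells. *Slc35c2*, a Golgi transporter, stood at 0.0766, 125.6, 10.6 and 30.4 CPM and was the only one whose call held under all 10 other settings. *Cmtr2*, *Sstr3*, *Nupl2*, *Gpr27*, *Adam4*, *Antxrl*, *AA414768*, *Rdh12* and *Mllt11* had 11.2 to 57.6 CPM at 3 weeks in batch 1, each in 2 of the 6 thinned cells. Downward, *Sparcl1*, a SPARC relative, stood at 509.5, 0, 171.3 and 373 CPM, and its call was lost without the 6 cells, which left a log2 of -5.11. *Rnf167*, *Fxyd6*, *Cd47*, *Itga1*, *Tpp1*, *Nid1*, *Idh2*, *Scrib* and *Ifi27* had 90.9 to 111.2 CPM at 1 week and 1.24 CPM or less at 3 weeks in batch 1. *Scrib*, a polarity protein, stood at 91.8, 0, 41.7 and 48.1 CPM.

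The 2 within-batch comparisons share no plate. Of the genes called higher, 40 were called in both, 7.84% of those of 3 against 1 week and 7.25% of those of 4 against 3 weeks. Over all genes tested, 8.01% were called higher at 4 than at 3 weeks and 7.65% at 3 than at 1 week. Of the genes called lower, 11.3% and 15.2% were called in both. Beside these stand 10.7% and 14.9% of all genes tested, called lower in the other comparison. The overlap thus lay near the share over all genes in both directions. Among the genes lower in both, *Fst*, follistatin, an inhibitor of activin, stood at 152.8, 20.3, 264.6 and 44.6 CPM, with the 4-week cells at 0, 0 and 204.2 CPM against 0, 175.5 and 2641 CPM. *Dtx2*, an E3 ligase of the Deltex family that acts on Notch, stood at 24.8, 2.07, 24.7 and 3.04 CPM. *Tnip2*, a regulator of NF-κB, stood at 68.1, 5.80, 108.6 and 19.2 CPM, *Slc45a4*, a transporter, at 30.98, 1.24, 51.1 and 7.15 CPM and *Gprin3* at 53.1, 7.88, 58.3 and 3.96 CPM. *Zfp68*, *Card19*, *Zfp516*, *Rdh5*, *Epb41l4b* and *Senp1* were also lower in both. In each of these the 3-week plates of batches 1 and 2 differed, the plate of batch 1 being lower, so that the levels do not form a series over 1, 3 and 4 weeks.

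Among those higher in both, *Nt5e*, which encodes CD73, stood at 14.6, 94.5, 0.861 and 13.4 CPM, *Elovl4*, an elongase of very long fatty acids, at 9.73, 69.2, 8.69 and 60.8 CPM, and *Large2*, a glycosyltransferase, at 24.8, 139.7, 38.4 and 184.97 CPM. *Suv39h2*, *Prpf31*, *Ntng1*, *Decr1*, *Fam160a2*, *Pla2g6*, *Gart*, *Slc25a30* and *Apeh* were the others named by the rule. For these the 3-week plate of batch 1 lay above that of batch 2.

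The lists that the study derived from these same cells are not independent of them. Of the tested genes of its basal pattern, 23 (15.4%) were called higher and 13 (8.72%) lower at 3 than at 1 week, with 7.65% and 14.9% of all genes. At 4 against 3 weeks, 7 (4.70%) were called higher and 38 (25.5%) lower, with 8.01% and 10.7% of all genes. Their median log2 ratios were 0.37 and -0.66, against 0.16 and 0.01 over all genes. Of its intermediate pattern, 2 were higher and 3 lower among 23 tested, and 7 higher and 1 lower among 28. Of its luminal pattern, 2 were higher and 7 lower among 34 tested, and 1 higher and 5 lower among 30. For both patterns these counts stand beside 22.6% and 18.7% of all genes called in either direction.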

How the data were processed

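Single cells were sequenced with Smart-seq2. The deposited values are read counts per gene, not normalized, and the submitters' processing notes name Trim Galore 0.6.5, STAR 2.7.7a, HTSeq 0.13.5 and GRCm38. Batches 1 and 2 were single-end. Spike-in and summary entries were set apart, and spike-ins took 5.43% to 9.39% of the reads on a plate. Of 39154 gene identifiers, 37893 matched a symbol. Cells were filtered as described, reads were summed per plate and scaled to CPM by all reads on genes, with shares of cells taken after random thinning to 100000 reads per cell. Chase times came from the deposited annotation. No p-value is given, since each chase time in a batch is 1 plate. Cells were sorted singly, and no doublet caller was run. edgeR 4.0.16 (R 4.3.3) gave the TMM scaling used as an alternative, and Python 3.11.15 with numpy 2.4.6, pandas 2.3.3 and scipy 1.17.1 the rest. The call rule was tested on simulated counts.

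The members and gene lists were chosen with earlier results of these data known. Besides the lists, the genes named are, per comparison and direction, the 10 called genes with the largest ratio, and up to 12 called the same way in both, without predicted, ribosomal or mitochondrial genes. Alternatives were other *Dcpp1*, *Epcam* and read limits, TMM scaling, equally weighted cells, thinned cells, other thresholds of the call rule and, chosen after seeing the data, leaving out the 6 cells without keratins or these and 8 cells with vascular markers. Sequences are RefSeq (GRCm38.p6). The study removed cells over 1 *Dcpp1* count, which was used as an alternative.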

Additional observations from a re-analysis of the deposited data

How the results depend on the processing

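No paired analysis was possible because each chase time within a batch is 1 plate and the labels pair no cells. With 6 cells at 3 weeks in batch 1, calls of 3 against 1 week were the less stable: 14 of 80 calls of named and listed genes held under all 10 settings that recompute levels, against 68 of 88 for 4 against 3 weeks. TMM scaling moved the median log2 ratio of all genes for 3 against 1 week from 0.16 to -0.05 and changed no direction among these genes. The total of kept cells stayed within 1.5 times that kept here under every setting, but the 3-week plate of batch 1 fell from 6 to 2 cells with at most 1 *Dcpp1* read.

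In the order 3 against 1 week, 4 against 3 weeks and the pair of 3-week plates, calls numbered 3891, 3319 and 3502 without a filter on low values, 968, 750 and 952 with 50 CPM in the higher plate, 608, 330 and 793 with a fold of 4, and 2773, 2129 and 2936 without the leave-out check. With at most 1 *Dcpp1* read, 3 against 1 week gave 2323 calls on 2 cells at 3 weeks, and the log2 ratios there turned for *Col6a2* (-2.45), *Csn3* (-1.76), *Dusp1* (-0.41), *Fasn* (-0.78), *Fos* (-1.21), *Gart* (-0.76), *Lmod1* (0.39) and *Nt5e* (-0.43). Without a *Dcpp1* filter that of *Rdh5* turned (0.35), and without the *Epcam* filter those of *Cd47* (0.47), *Col4a1* (0.58) and *Col4a2* (0.10). The first of these settings left fewer cells, and only those with at most 1 *Dcpp1* read. The cause of these changes was not tested.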

Other observations

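Salivary transcripts were present at a low level in the basal cells on the 3 plates of 1 and 3 weeks. *Bpifa2*, a secreted protein of the parotid gland, stood at 27.96, 59.3, 41.1 and 0 CPM in the basal cells and at 23184, 33903, 302 and 0 CPM in the luminal-gate GFP+ cells of the same plates. The 8 salivary markers used here summed to 49.8, 67.2, 44.9 and 0.761 CPM in the basal cells, and *Smgc* and *Prol1* had no read on any plate. *Bpifa2* is among the genes called lower at 4 weeks, and no cell of the 4-week plate had a *Dcpp1* read. The part of such transcripts in other results was not tested.

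The pair of 3-week plates differed in genes of several lists, although the chase was the same. Of the matrix genes, *Col4a1*, *Col4a2*, *Nid1*, *Eln* and *Mmp2* were higher in batch 2 than in batch 1, with 17.4% of all genes called in this direction. *Mmp2*, a gelatinase, stood at 213.6, 86.2, 294.98 and 189.1 CPM. *Plet1*, *Sox9*, *Jag1*, *Nrg1* and *Tgfbr2* were also higher in batch 2, and *Fos*, *Bmp7*, *Ccnd2* and *Gata3* lower. *Acta2*, *Krt14* and *Sparc* were not called between the 3-week plates, with log2 ratios of -0.25, -0.21 and 0.16. *Krt5* was not called either, but its sum in batch 1 was over 2-fold that in batch 2. Its median cell stood at 1592 CPM in batch 1 and at 871 CPM in batch 2.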
